A study of Mus musculus with 12 samples.

Results

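The cluster of miR-183, miR-96 and miR-182 is a group of 3 miRNAs cut from neighbouring hairpins. Its 3 members were taken as miR-183-5p (MIMAT0000212), miR-96-5p (MIMAT0000541) and miR-182-5p (MIMAT0000211), by accession, from the mouse miRNA tables. They are 3 of the 874 mouse miRNAs with at least 1 count in the series, and a miRNA missing from a table was read as 0.

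The samples were sera of 3 female athymic NCr nude mice, aged 4 to 6 weeks when the model was set up. Serum was drawn before and 2 weeks after 1000000 human SH-SY5Y cells, an established neuroblastoma line, were implanted under the renal capsule. The paper compares depleted and undepleted libraries of the same RNA samples, read here as 2 aliquots of the RNA of each of the 6 sera. How this RNA was divided is not described. In the depleted aliquot, biotinylated DNA probes and streptavidin beads removed 5′ tRNA-half molecules, the fragments that dominate small RNA of mouse serum. The undepleted aliquot was not treated. This gave 4 groups of 3 libraries, all from the same 3 immunodeficient mice. No tumour-free mice were sampled at the later time, so the tumour and the elapsed time cannot be told apart. Serum is cell-free, so a change in the number of cells that release a miRNA and a change in the amount released per cell cannot be told apart either.

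In vertebrates the 3 hairpins are made from a shared primary transcript. The cluster is best known from sensory cells: it is abundant in photoreceptors of the retina, hair cells of the inner ear and sensory neurons, and mutations in the seed of miR-96 cause progressive hearing loss in mice and humans. miR-182 is typically the most abundant member in the retina and is also known from activated lymphocytes and many epithelial tumours. miR-183 is named as a regulator of cell adhesion and migration genes. A miRNA finds its targets mainly through the seed, the short stretch near its 5′ end, and the members of this cluster have related but unequal seeds.

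The mature sequences are shown first, because the relation between their seeds defines the family. Bases 2 to 8, counted from the 5′ end, are in capitals, and the sequences are those of RefSeq for GRCm38.p6.
miR-183-5p: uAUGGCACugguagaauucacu
miR-96-5p: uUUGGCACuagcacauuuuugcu
miR-182-5p: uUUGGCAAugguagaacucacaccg

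miR-182-5p and miR-96-5p differed at 1 seed position (A8C, the base of miR-182-5p first). miR-183-5p and miR-96-5p also differed at 1 (A2U, the base of miR-183-5p first). miR-183-5p and miR-182-5p differed at both (A2U and C8A, the base of miR-183-5p first). Over all aligned positions, the seed included, the order of likeness was different. miR-183-5p and miR-182-5p were identical at 18 of 22 aligned positions, against 13 of 22 for miR-183-5p and miR-96-5p and 12 of 23 for miR-182-5p and miR-96-5p. The longest run shared by miR-183-5p and miR-182-5p was 8 bases, shorter than the 15 bases required of a read. Among the 1738 mature mouse miRNAs of the table, the only other one with a member's seed was mmu-miR-1271-5p, which has that of miR-96-5p. Its counts were not analysed here.

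The hairpins show where each mature strand, in capitals, lies in its precursor. All are on the minus strand of chromosome 6 and are given 5′ to 3′. In each, the 5p strand lies in the first arm.
Mir183, chr6:30169668-30169737: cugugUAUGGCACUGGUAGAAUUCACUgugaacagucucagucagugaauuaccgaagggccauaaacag
Mir96, chr6:30169446-30169551: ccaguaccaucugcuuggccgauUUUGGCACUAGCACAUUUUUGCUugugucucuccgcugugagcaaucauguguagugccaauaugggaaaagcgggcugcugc
Mir182, chr6:30165918-30165992: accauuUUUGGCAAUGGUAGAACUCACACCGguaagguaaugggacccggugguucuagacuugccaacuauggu

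In the GRCm38 annotation, 116 bases separate Mir183 from Mir96 and 3453 bases separate Mir96 from Mir182. The cluster spans 3820 bases. In GENCODE M21 no other gene overlaps the hairpins. The nearest genes are Nrf1, whose annotation ends at 30153458 on the plus strand, and the non-coding RNA Rncr4, which starts at 30172893 on the plus strand. The RefSeq table lists a non-coding host gene, Mirc35hg, from 30158640 to 30174125, which spans all 3 hairpins. Among the annotated mouse miRNAs each mature sequence was found at 1 locus and in no other hairpin. The rest of the genome was not searched for further copies.

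**Figure D1:**
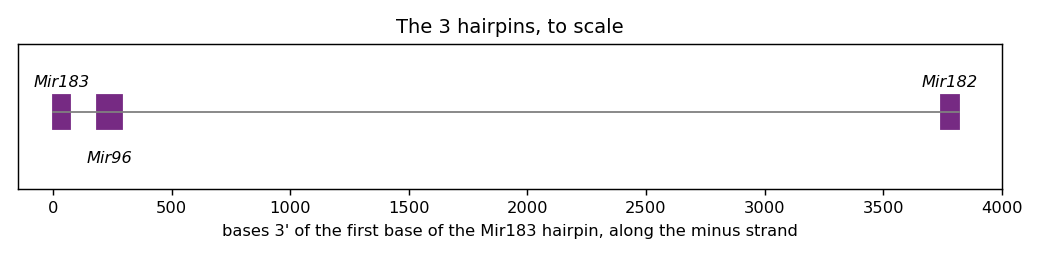
Map of the 3 hairpins to scale, with the distance in bases from the first base of the Mir183 hairpin along the minus strand. Boxes are hairpins. Mir183 and Mir96 lie 116 bases apart, and Mir182 follows after a further 3453 bases.

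The depth of the libraries sets what can be said of each member. Depleted libraries held 938706 to 2271549 mouse miRNA counts and undepleted libraries 21235 to 97183. Levels are given as parts per 1000000 mouse miRNA counts (ppm), with 95% intervals that cover counting error only, since reads were not marked with molecular identifiers. The depleted library of mouse 1069 before implantation stood apart: it held the highest share of 60 of the 163 miRNAs (36.8%) that reached 50 counts in each of the 6 depleted libraries. That serum also gave the library with the fewest counts in each arm, 938706 depleted and 21235 undepleted. Its libraries listed the fewest miRNAs of their arms as well, 546 and 225. Whether depth or library quality bears on its shares was not tested. The DESeq2 changes of miR-182-5p and miR-183-5p before to after are therefore given with and without this mouse. Of blood cell miRNAs only miR-16-5p, which is abundant in red blood cells, was analysed here.

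miR-182-5p was the abundant member in every library. In the depleted libraries of mice 1046, 1047 and 1069 it had 411, 663 and 1588 counts before implantation and 1647, 1677 and 1308 counts after. In the undepleted libraries it had 71, 83 and 83 counts before and 119, 104 and 79 after. It ranked 54th to 98th among the miRNAs of the depleted libraries and 33rd to 69th among those of the undepleted libraries.

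miR-183-5p came second in every library. It had 54, 75 and 178 counts in the depleted libraries of mice 1046, 1047 and 1069 before implantation and 214, 152 and 192 after. In the undepleted libraries its counts were 14, 14 and 15 before and 24, 14 and 11 after. At these counts the error is wide: the exact 95% Poisson interval of 14 counts runs from 7.65 to 23.5.

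miR-96-5p was at the edge of detection. It had 3, 5 and 17 counts in the depleted libraries before implantation and 0, 20 and 5 after, in the same order of mice. In the undepleted libraries it had 2, 0 and 0 counts before and 0, 3 and 0 after. Its 0 in the depleted library of mouse 1046 after implantation allows a share of up to 1.68 ppm if 3 counts are taken as the limit, or 2.16 ppm by the 95% Wilson interval. In undepleted libraries 3 counts correspond to 30.9 to 141 ppm. The share seen in the depleted aliquots, at most 18.1 ppm, lay below that limit.

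The members kept one order throughout. miR-182-5p gave 86.9 to 90.7% of the counts of the 3 members in depleted libraries and 81.6 to 87.8% in undepleted libraries. The counts of miR-182-5p and miR-183-5p stood in a ratio of 8.49 ± 1.48 (SD, n = 6) in depleted and 6.02 ± 1.06 (SD, n = 6) in undepleted libraries. miR-96-5p gave at most 1.08% of the counts of the 3 members in a depleted library. These ratios compare reads, and the capture of each sequence by the library kit was not tested.

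Mouse 1069 stood apart from the other two before implantation. miR-182-5p reached 305, 364 and 1692 ppm in the depleted libraries of mice 1046, 1047 and 1069 before implantation, and 925, 963 and 576 ppm after. In the undepleted libraries it was at 731, 922 and 3909 ppm before and at 1746, 2002 and 1598 ppm after. In both arms mouse 1069 was the highest of the 3 before implantation and the lowest after, and the before and after groups overlapped.

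For miR-183-5p, too, mouse 1069 was the highest before implantation and the lowest after. It was at 40.1, 41.2 and 190 ppm in the depleted libraries before and at 120, 87.3 and 84.5 ppm after. In the undepleted libraries it was at 144, 156 and 706 ppm before and 352, 269 and 222 ppm after. Group means of the cluster as a whole were 885 ± 879 ppm before and 923 ± 226 ppm after in depleted libraries, and 2196 ± 2097 and 2083 ± 255 ppm in undepleted libraries (SD, n = 3).

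**Figure D2:**
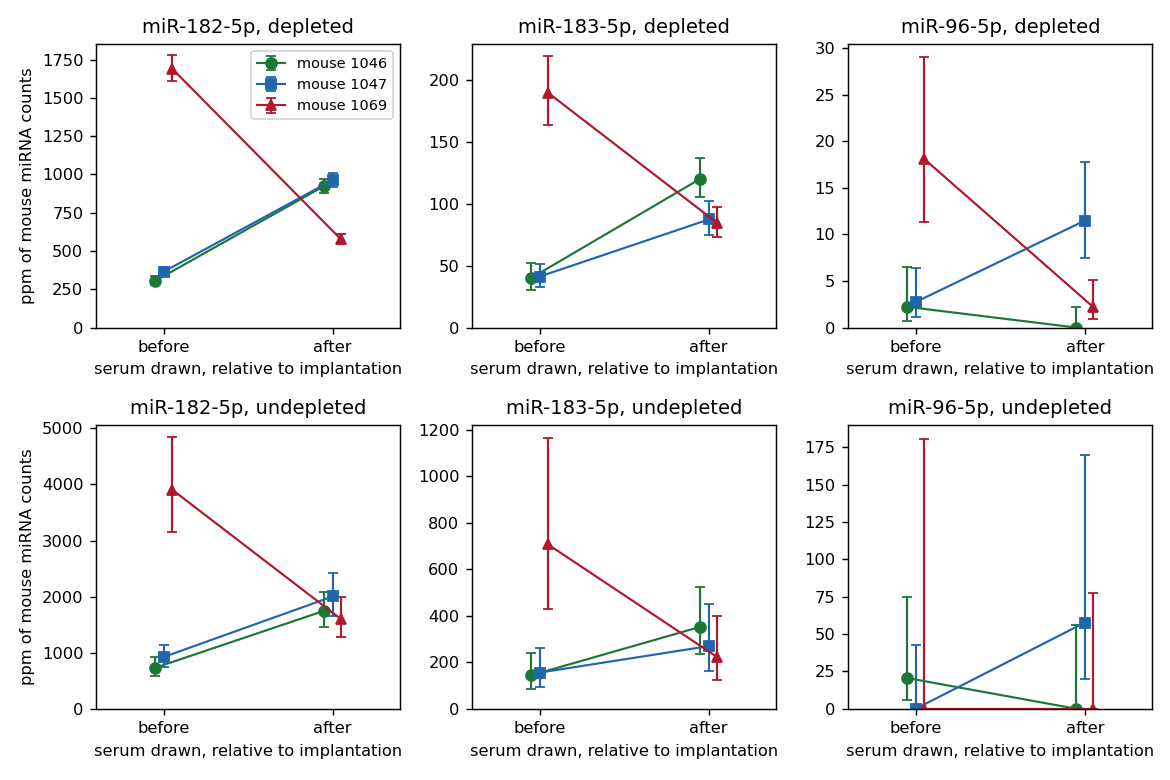
Level of each member in each library, in ppm of mouse miRNA counts on linear axes that start at 0. The upper row holds depleted and the lower row undepleted libraries, lines join the 2 sera of a mouse, and bars are 95% Wilson intervals for counting error. Mouse 1069 stands above the other two before implantation for miR-182-5p and miR-183-5p in both arms, at 1692 ppm against 305 and 364 ppm for miR-182-5p in depleted libraries.

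To compare sera drawn before and after implantation, the change was first taken within each mouse. The share of miR-182-5p in depleted libraries was 3.03-fold higher after implantation in mouse 1046 (95% counting interval 2.72 to 3.39) and 2.64-fold higher in mouse 1047 (2.42 to 2.90). In mouse 1069 it was 2.94-fold lower (ratio 0.340, 0.316 to 0.366). The mice differed in direction by more than counting error.

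The undepleted aliquots of the same sera gave a separate library of each change. For miR-182-5p the ratios of after to before were 2.39 (1.77 to 3.25), 2.17 (1.61 to 2.93) and 0.409 (0.297 to 0.563) in mice 1046, 1047 and 1069. Each of these lay on the same side of 1 as in the depleted aliquot. The aliquots of a serum were read as sharing 1 RNA isolation, so this repeats the library and not the draw of blood.

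miR-183-5p had the same direction as miR-182-5p in all 3 mice. Its ratios were 3.00 (2.22 to 4.12), 2.12 (1.60 to 2.83) and 0.446 (0.362 to 0.550) in depleted libraries. In undepleted libraries they were 2.44 (1.21 to 5.11), 1.73 (0.766 to 3.92) and 0.315 (0.131 to 0.734). The interval of mouse 1047 in the undepleted arm included 1, and the other 5 did not.

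For miR-96-5p only depleted libraries held enough counts for such a ratio. It was 4.18 (1.52 to 14.3) in mouse 1047 and 0.122 (0.0351 to 0.343) in mouse 1069, as for the other members. In mouse 1046 it went from 3 counts to 0, with an upper limit of 1.83 on the ratio, while the other two members were higher there.

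**Figure D3:**
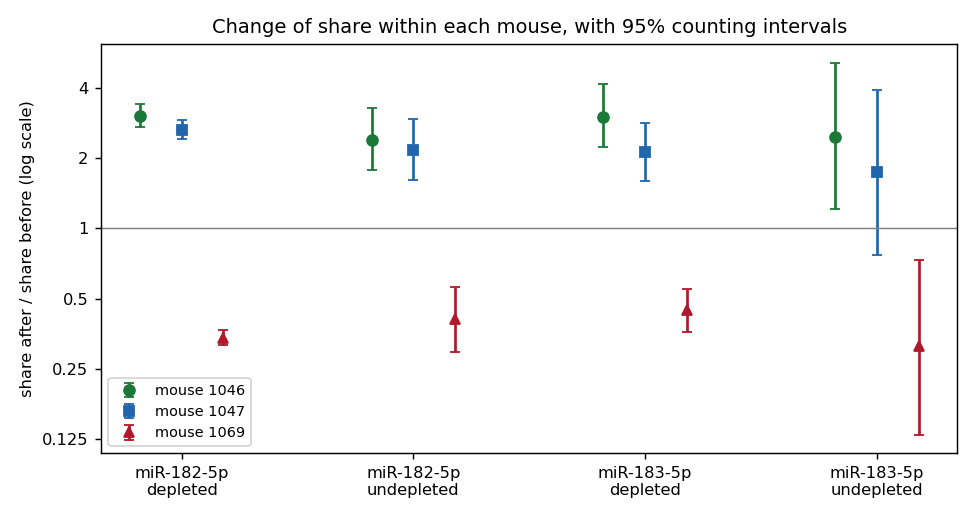
Share after implantation divided by share before, on a log scale, for each mouse, arm and abundant member. Bars are exact 95% counting intervals and the grey line marks no change. Mice 1046 and 1047 lie above 1 in all 4 columns, from 1.73 to 3.03, and mouse 1069 lies below, from 0.315 to 0.446.

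Across the 3 mice no member was called changed. The test was DESeq2 on all mouse miRNAs, and a miRNA was called where it differed by 2-fold or more at an adjusted p below 0.05. In depleted libraries 33 of 310 tested miRNAs were called (10.6%). The log2 fold change of miR-183-5p was -0.04 (SE 0.39, adjusted p = 0.963) and that of miR-182-5p was -0.08 (SE 0.38, adjusted p = 0.917). miR-96-5p, at -0.38 (SE 0.52), had too few counts for an adjusted p. The median of all tested miRNAs was -0.09.

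In undepleted libraries DESeq2 called 12 of 108 miRNAs (11.1%), and again no member. The log2 fold change was -0.06 for miR-183-5p (SE 0.46, adjusted p = 0.947) and 0.01 for miR-182-5p (SE 0.38, adjusted p = 0.989). That of miR-96-5p was 0.11 (SE 0.34), with no adjusted p. The median of all tested miRNAs in this arm was -0.06. With standard errors of this size the fit does not show that the members were equal before and after.

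The result turned on mouse 1069. Without it, DESeq2 called miR-182-5p higher after implantation in depleted libraries, by 1.04 on the log2 scale (adjusted p = 2.85e-06). In that fit of 2 mice, 19 of 225 miRNAs were called, 14 lower and 5 higher (2.22%). miR-183-5p then stood at 0.81 (adjusted p = 0.0503), and miR-96-5p at 0.18. In undepleted libraries miR-182-5p stood at 0.81 without this mouse (adjusted p = 0.0451), short of 2-fold, and miR-183-5p at 0.47. Mouse 1069 was the only mouse in which both abundant members were lower after implantation. Leaving it out therefore fixed the direction of their changes, and the p-values do not allow for that choice. Without mouse 1046 or mouse 1047, miR-182-5p in depleted libraries stood at -0.43 or -0.36 and was not called. The reasons for the difference between mice were not tested.

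Exact permutation tests were also run on the shares, a scale that does not use size factors. Their estimates in depleted libraries were positive, where DESeq2 gave -0.08 for miR-182-5p and -0.04 for miR-183-5p. In depleted libraries the mean log2 share of miR-182-5p was higher after implantation by 0.48, with a two-sided exact p of 0.6, and that of miR-183-5p by 0.50, with an exact p of 0.6. In undepleted libraries the differences were 0.36 (exact p = 0.8) and 0.14 (exact p = 1). For the 3 members together the difference was 0.48 in depleted and 0.33 in undepleted libraries. Each was higher in 2 of 3 mice. With 3 libraries a group the smallest p this test allows is 0.1, and 5 quantities were tested in each arm, with all adjusted p at or above 0.75.

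The opposite direction of mouse 1069 was not seen for miR-16-5p. This miRNA was lower after implantation in all 3 mice, with ratios of after to before of 0.612, 0.537 and 0.518 in depleted and 0.593, 0.527 and 0.493 in undepleted libraries. DESeq2 gave it a log2 fold change of -1.07 in depleted libraries (SE 0.25, adjusted p = 0.000882). Other miRNAs did share the pattern. Of these 163 miRNAs, 37 (22.7%) were higher after implantation in mice 1046 and 1047 and lower in mouse 1069, both members among them. Of 109 miRNAs that reached 4 counts in each of the 12 libraries, 10 (9.17%) did so in both arms, again with both members. This pattern was chosen after the members' values had been seen.

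Over the 6 depleted libraries, miR-183-5p and miR-182-5p were most like each other. The likeness was Pearson's r of log2(normalised count + 1), among 212 other miRNAs whose normalised counts averaged 50 or more. It was 0.95 for the pair, rank 1 in both directions. Next for miR-183-5p came MIMAT0004529 and MIMAT0000135, both at 0.94, and for miR-182-5p MIMAT0000135 and MIMAT0004821, both at 0.94. The files do not pair these accessions with names. miR-16-5p ranked 150th for miR-183-5p and 148th for miR-182-5p. These values describe 6 libraries of 3 mice and share their depth and size factors. The library of mouse 1069 before implantation was the highest for both members, at 284 and 2532 normalised counts. The likeness was not computed without this mouse.

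The aliquots of each serum were compared to see whether the proportions of miRNAs were the same in both. The depleted aliquot was also heated with the probes, slowly cooled, mixed with beads and purified by ethanol precipitation. Its library held far more mouse miRNA counts as well. Capture by the probes, loss in handling and depth cannot be told apart here, and none of them was tested. For the abundant members of the cluster the proportions differed. The share of miR-183-5p was lower in the depleted than in the undepleted aliquot of all 6 sera: 3.60-, 3.78- and 3.73-fold in mice 1046, 1047 and 1069 before implantation and 2.93-, 3.09- and 2.63-fold after. miR-182-5p was also lower in all 6, by 2.40-, 2.53- and 2.31-fold before and 1.89-, 2.08- and 2.77-fold after. The counting interval of each of these 12 ratios excluded an equal share.

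In DESeq2 with the time point as a covariate, 13 of 383 miRNAs (3.39%) were called lower in depleted libraries and 19 were called higher. Both abundant members were among those called lower. miR-183-5p had a log2 fold change of -1.67 (SE 0.38, adjusted p = 0.000161), the 12th lowest of the 383. miR-182-5p stood at -1.23 (SE 0.38, adjusted p = 0.0110), the 26th lowest. miR-96-5p was at -0.93 (SE 0.85, adjusted p = 0.599) and was not called. The median of all tested miRNAs was -0.04.

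The call of miR-182-5p depended on the fit. It was lost with edgeR, where the change was -0.96 and so short of 2-fold (edgeR adjusted p = 0.000306). It was lost with TMM factors in DESeq2 (-0.93, adjusted p = 0.0511), with total counts as size factors (-1.08, DESeq2 adjusted p = 0.0808) and without mouse 1047 (-1.16, DESeq2 adjusted p = 0.158). miR-183-5p was called in all of these. With the serum as a block, which pairs the 2 aliquots, both calls held: -1.76 for miR-183-5p (SE 0.21, DESeq2 adjusted p = 1.25e-15) and -1.31 for miR-182-5p (SE 0.10, DESeq2 adjusted p = 6.65e-37).

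Paired over the 6 sera, the mean log2 ratio of shares, depleted over undepleted, was -1.71 ± 0.21 for miR-183-5p (SD, n = 6), that is 3.26-fold lower. It was -1.21 ± 0.20 for miR-182-5p (SD, n = 6), 2.31-fold lower, and -1.27 ± 0.17 for the 3 members together (SD, n = 6), 2.42-fold lower. The two-sided exact sign-flip permutation test gave p = 0.031 for each, the smallest it allows with 6 pairs. These pairs are 2 sera from each of 3 mice, which the test took as independent. Most counts of the 3 members are those of miR-182-5p, so the test of the sum largely repeats that of miR-182-5p. Adjusted over the 5 quantities tested, the exact p was 0.0521, so the shares alone do not pass 0.05. For miR-96-5p the mean difference was -6.93 ppm (exact p = 0.6875), with 3 sera higher and 2 lower.

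The same sera show how other miRNAs behaved. Among the 122 to 173 miRNAs that reached 4 counts in each aliquot of a serum, the median log2 ratio was 0.03 to 0.12. In a given serum 1 to 7 miRNAs had a lower ratio than miR-183-5p, and 3 to 18 a lower ratio than miR-182-5p. miR-16-5p was lower in the depleted aliquot by 1.27- to 1.42-fold, less than either member in every serum.

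Counting error is large in the undepleted libraries, and the difference was set against it. At the share of its depleted aliquot, miR-182-5p would have given 29.6 counts in the undepleted library of mouse 1046 before implantation, where 71 were counted (exact Poisson interval 55.5 to 89.6). miR-183-5p would have given 3.89 counts there and had 14 (7.65 to 23.5). For miR-96-5p the same reckoning gave at most 0.597 counts in any undepleted library, and 0 to 3 were counted. Mouse 1046 before implantation had 2 counts against 0.216 (0.242 to 7.22), and mouse 1047 after had 3 against 0.597 (0.619 to 8.77). The other undepleted libraries had 0. The counting intervals of the depleted to undepleted ratios of these sera, 0.0124 to 1.29 and 0.0590 to 1.05, included an equal share. Depletion could therefore not be judged for this member.

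**Figure D4:**
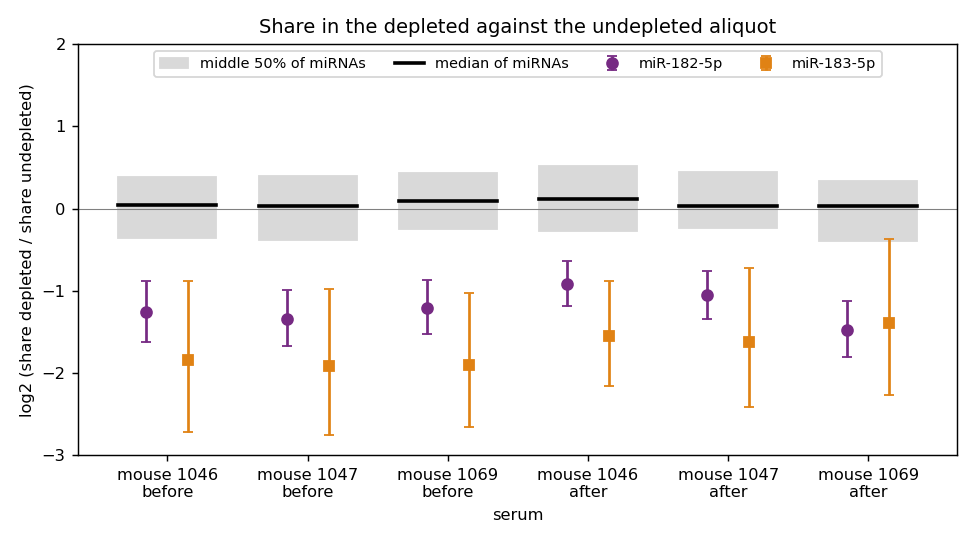
Log2 ratio of the share in the depleted to that in the undepleted aliquot, for each of the 6 sera. Points are miR-182-5p and miR-183-5p with exact 95% counting intervals, black lines are the median and grey boxes the middle 50% of miRNAs that reached 4 counts in each aliquot. Both members lie below the grey box in every serum, and the medians lie between 0.03 and 0.12.

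The abundant members were also set against each other. The ratio of miR-182-5p to miR-183-5p, which does not depend on scaling, was higher in the depleted aliquot in 5 of 6 sera. The mean log2 difference was 0.50 ± 0.28 (SD, n = 6), with a two-sided exact sign-flip p of 0.0625 (0.0781 adjusted over 5 quantities), so it did not pass the threshold. Between before and after the ratio differed by -0.02 on the log2 scale in depleted libraries (exact p = 1) and by 0.22 in undepleted libraries (exact p = 0.4).

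**Figure D5:**
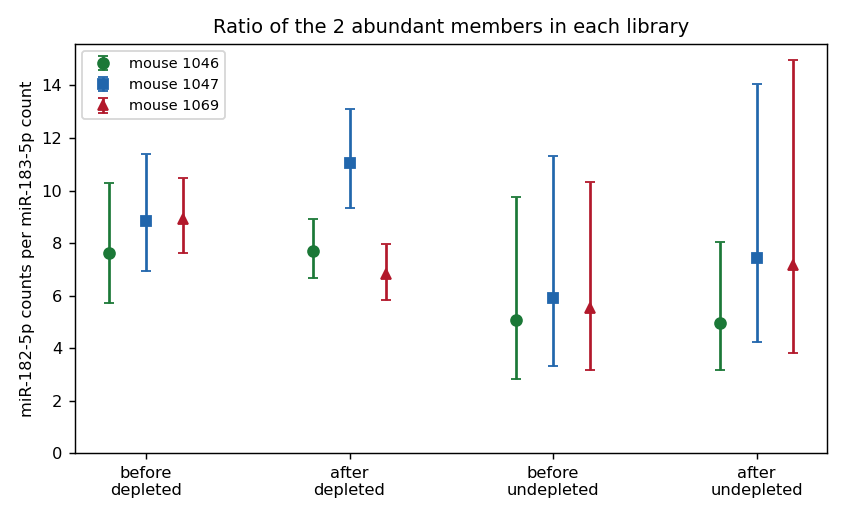
Counts of miR-182-5p per count of miR-183-5p in each of the 12 libraries, on a linear axis that starts at 0, with exact 95% counting intervals. Depleted libraries range from 6.81 to 11.0 and undepleted libraries from 4.96 to 7.43.

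Whether depletion acted alike before and after implantation was also compared. The mean log2 ratio of shares for miR-183-5p was -1.89 ± 0.04 before and -1.52 ± 0.12 after (SD, n = 3), with an exact permutation p of 0.1, the smallest that 3 against 3 allows. For miR-182-5p it was -1.27 ± 0.07 and -1.15 ± 0.29 (SD, n = 3; exact permutation p = 0.5). In the interaction fit of time point and depletion, DESeq2 called 0 of 874 miRNAs (0%), with 3 at an unadjusted p under 0.05, and edgeR called 0, with 11. The interaction on the log2 scale was 0.13 for miR-183-5p (SE 0.84), 0.01 for miR-182-5p (SE 0.83) and -1.58 for miR-96-5p (SE 2.67). This fit does not pair the aliquots, and its DESeq2 adjusted p was 0.998 for each. With the serum as a block the interactions were 0.27 (SE 0.45), 0.05 (SE 0.21) and -1.72 (SE 2.45) in the same order. The DESeq2 adjusted p was then 0.999 for each.

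The sera came from mice that carried human cells, and the same reads were also counted against the human genome. miR-183-5p had the same count in all 12 libraries as the human entry MIMAT0000261, and miR-96-5p the same count in all 12 as MIMAT0000095. For these members reads of the mouse and reads of the implanted cells cannot be told apart. No human entry had the counts of miR-182-5p. The entry nearest in counts differed by 29.5% of the mouse counts summed over libraries and matched in 0 of them. That entry was found by its counts alone and need not be the human miR-182-5p, which could not be looked up by name. Whether reads of the mouse and of the implanted cells can be told apart for miR-182-5p was therefore not tested.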

How the data were processed

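The authors isolated RNA from 50 μl of serum, made TruSeq small RNA libraries with 15 PCR cycles, trimmed reads with Cutadapt 1.8.1, discarded reads under 15 bases, mapped them with Bowtie 1.1.2 without mismatches to GRCm38/mm10 and GRCh37/hg19, and annotated them with miRBase. The deposited values are raw counts per miRNA accession, 1 mouse and 1 human table a library. How reads with several matches were counted is not given in the sources used here. Groups came from the labels, and none of the libraries of a group were identical.

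DESeq2 1.42.0 in R 4.3.3 was fitted on all mouse miRNAs with at least 1 count (median-of-ratios factors, Wald test, prior on fold changes, Benjamini-Hochberg adjustment, independent filtering), per arm for before against after and on all 12 libraries with time as covariate for depletion. edgeR 4.0.16 was the alternative. Shares were tested with SciPy 1.17.1 by exact permutation. The script was tested on simulated data. The labels pair libraries by mouse and by serum. Deviations from group means correlated at 0.53 to 0.87 between aliquots of a serum and at -0.27 to -0.01 between the sera of a mouse (103 miRNAs). The text names the 3 members, miRNAs with a member's seed and the 3 miRNAs most like each abundant member. The members and lists were chosen with earlier results of these data known. Passenger strands and lists of blood, neural, liver and muscle miRNAs were not analysed here, because no table paired their names with accessions. The number of unused columns of sample values was 0.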

Additional observations from a re-analysis of the deposited data

How the results depend on the processing

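Before against after in depleted libraries, the small change of miR-183-5p turned from negative to positive with edgeR (0.062), TMM factors (0.051), total counts (0.0945) and the replicate block by mouse (0.095), and that of miR-182-5p likewise (0.0155, 0.013, 0.0504 and 0.0987). In undepleted libraries miR-183-5p stood at 0.0605 with edgeR, and miR-182-5p at -0.00599 with total counts and -0.0298 with a filter of at least 4 counts in 3 libraries. The interaction was -0.11 for miR-183-5p and -0.22 for miR-182-5p with edgeR. None of these passed the threshold. For depletion, miR-182-5p stood at -0.96 with edgeR, -0.93 with TMM factors and -1.08 with total counts and was not called. Without the fold limit, adjusted p alone called 52, 21 and 55 miRNAs in depleted, undepleted and depletion comparisons, against 33, 12 and 32.

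Leaving out 1 mouse at a time, the change before to after ranged from -0.41 to 0.81 for miR-183-5p, -0.43 to 1.04 for miR-182-5p and -0.89 to 0.18 for miR-96-5p in depleted libraries. In undepleted libraries it ranged from -0.40 to 0.47, -0.24 to 0.81 and -0.14 to 0.22. The depletion change of miR-182-5p ranged from -1.28 to -1.16, and its call was lost without mouse 1047. Calls numbered 11 to 32 in depleted libraries (11 without mouse 1047, 19 without 1069), 1 to 11 in undepleted libraries (1 without 1047, 7 without 1069) and 19 to 33 for depletion (19 without 1046). The share differences before to after ranged from -0.0411 to 1.33 for miR-183-5p, -0.0758 to 1.50 for miR-182-5p and -0.0699 to 1.48 for the 3 members together (log2) and from -9.07 to 3.26 ppm for miR-96-5p in depleted libraries. In undepleted libraries they ranged from -0.44 to 1.04, -0.0862 to 1.19 and -0.12 to 1.17, and from -10.3 to 28.9 ppm. The highest log2 values, and the positive one of miR-96-5p in depleted libraries, were those without mouse 1069. The share ratios for depletion ranged from -1.74 to -1.67, -1.27 to -1.14 and -1.32 to -1.23, with 0.125 the smallest exact p that 4 sera allow, and miR-96-5p from -15.5 to 0.489 ppm. The ratio of miR-182-5p to miR-183-5p before to after in depleted libraries ranged from -0.19 to 0.17.

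Total counts moved the median of all miRNAs in depleted libraries from -0.09 to 0.14 and the calls from 15 higher and 18 lower to 32 and 5. Undepleted calls were 9 higher and 3 lower, against 8 and 5 with TMM factors and 9 and 6 with edgeR. For depletion they were 19 and 13, against 32 and 10 with TMM factors and 34 and 10 with edgeR; TMM moved that median from -0.04 to 0.20. Blocking by mouse or serum changed no call of a member. Of 176 alternative values of a change or ratio, 130 kept their direction and side of the threshold, and 27 of 35 alternative counts of calls stayed within 1.5 times the count given. The cause of the other differences was not tested. The ratio from human tables was not run, since no human entry had the counts of miR-182-5p, nor was the total without miR-451a and miR-486. A total without miR-16-5p alone, added after seeing the data, changed no direction.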
